A study of Mus musculus with 10 samples.

Results

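Expression of 10 genes for basic leucine zipper (bZIP) factors of the AP-1, BATF and BACH type was followed across sorted CD4+ T cells with and without a deletion of Satb1. The genes were taken by name, as the rows of the same symbol in each of the 10 count files: the Fos family members Fos, Fosb and Fosl2, the Jun family members Jun, Junb and Jund, the BATF factors Batf and Batf3, and the BACH factors Bach1 and Bach2. They are 10 of the 48321 gene symbols counted. All 10 symbols were found, 9 passed the filter on low counts, and Batf3 had no count in any library.

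AP-1 is a dimer of a Fos and a Jun protein, which pair through their leucine zippers and bind a short palindromic DNA element. In T cells it forms after antigen receptor and MAP kinase signals, and the Fos and Jun genes are themselves among the first to respond to a stimulus or to handling of cells. BATF proteins pair with Jun proteins and bind composite elements together with IRF4 or IRF8, with known roles in effector and regulatory T cells. BACH proteins pair with small Maf proteins at related elements and mostly repress: BACH2 restrains effector genes and helps keep T cells naive or regulatory, and BACH1 represses genes of haem handling and the oxidative stress response.

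The study asked how the chromatin organizer SATB1 affects mature regulatory T cells (Tregs), which express the transcription factor FoxP3 and the IL-2 receptor chain CD25. RNA-seq libraries were made from spleen CD4+ T cells of C57BL/6 mice, sorted by the GFP of a foxp3-ires-gfp reporter allele, read as FoxP3, and by CD25. WT mice gave FoxP3+CD25+ cells (Tregs) and FoxP3-CD25- cells (non-Tregs), and Satb1 F/F:Thpok-cre mice (KO) gave both of these and FoxP3+CD25- cells, a population taken from KO mice alone. Each of the 5 groups had 2 libraries, 1 from each of 2 mice of a genotype if the number in a label is read as the mouse, a reading that no label spells out. The cells received no treatment, and the study describes its mice as adults of mixed sexes, without the sex of each library. Thpok-cre is active in the whole CD4 lineage after its commitment and before Foxp3 is expressed. The floxed Satb1 is therefore meant to be deleted in non-Tregs as well as in Tregs. The reporter marks transcription of Foxp3, so FoxP3+ stands for GFP and not for a protein stain.

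The libraries held 6094952 to 12410064 reads counted on genes, with a median of 7721649. Levels are CPM, the counts of a gene scaled to the size of the library with TMM factors. A floor of 3 counts stood for 0.242 to 0.492 CPM, depending on the library, by counting error alone. Each test of a difference between groups was edgeR's quasi-likelihood test in 1 model of all 10 libraries, with Benjamini-Hochberg adjustment (FDR) over the 13796 genes that passed the filter. A gene with FDR under 0.05 is called changed. Satb1 itself had 379 to 881 CPM in WT and 534 to 1186 CPM in KO libraries, with log2 fold changes between KO and WT of 0.40 (FDR = 0.9999) in Tregs and -0.16 (FDR = 0.927) in non-Tregs. Counts of the whole gene do not resolve the floxed exons, so they do not check the KO label. The markers Cd3e (464 to 673 CPM) and Cd4 (711 to 1145 CPM) were present in every library, and Foxp3 (318 to 739 CPM in FoxP3+ and 18.0 to 38.9 CPM in FoxP3- libraries) followed the sort. Both libraries of WT replicate 1 were the only ones with more than 4 Xist counts and with 0 counts of chromosome Y genes. They read as female, and WT replicate 2 and all KO libraries read as male. Sex is therefore confounded with replicate within WT and is not balanced between the genotypes. The leading results for Fosb and Bach2 that use WT groups are also given without WT replicate 1.

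The members differed widely in level. Per kilobase of annotated exon, the mean over the 10 libraries was highest for Junb (819 CPM per kb), followed by Jund (452), Fos (226) and Jun (191). Batf (30.3 CPM per kb) and Fosb (28.0) formed the next level, then Bach2 (19.7), Bach1 (8.52) and Fosl2 (3.12). The ranges over libraries of Batf (20.4 to 38.5 CPM per kb) and Fosb (11.02 to 50.1) overlapped each other and that of Bach2 (14.0 to 25.9), as did those of Fos (187 to 342) and Jun (122 to 254). These ranges pool the 5 groups, so they do not by themselves order these neighbours. Within groups Batf lay above Bach2 in all but KO FoxP3+CD25- cells (20.4 to 20.9 against 21.8 to 22.0 CPM per kb). Batf3, the BATF factor known for its need in cross-presenting dendritic cells, was at 0 counts in all 10 libraries, which allows at most 0.242 to 0.492 CPM in each. The other 9 genes had between 107 (Fosl2) and 30432 counts (Junb) in a library.

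**Figure D1:**
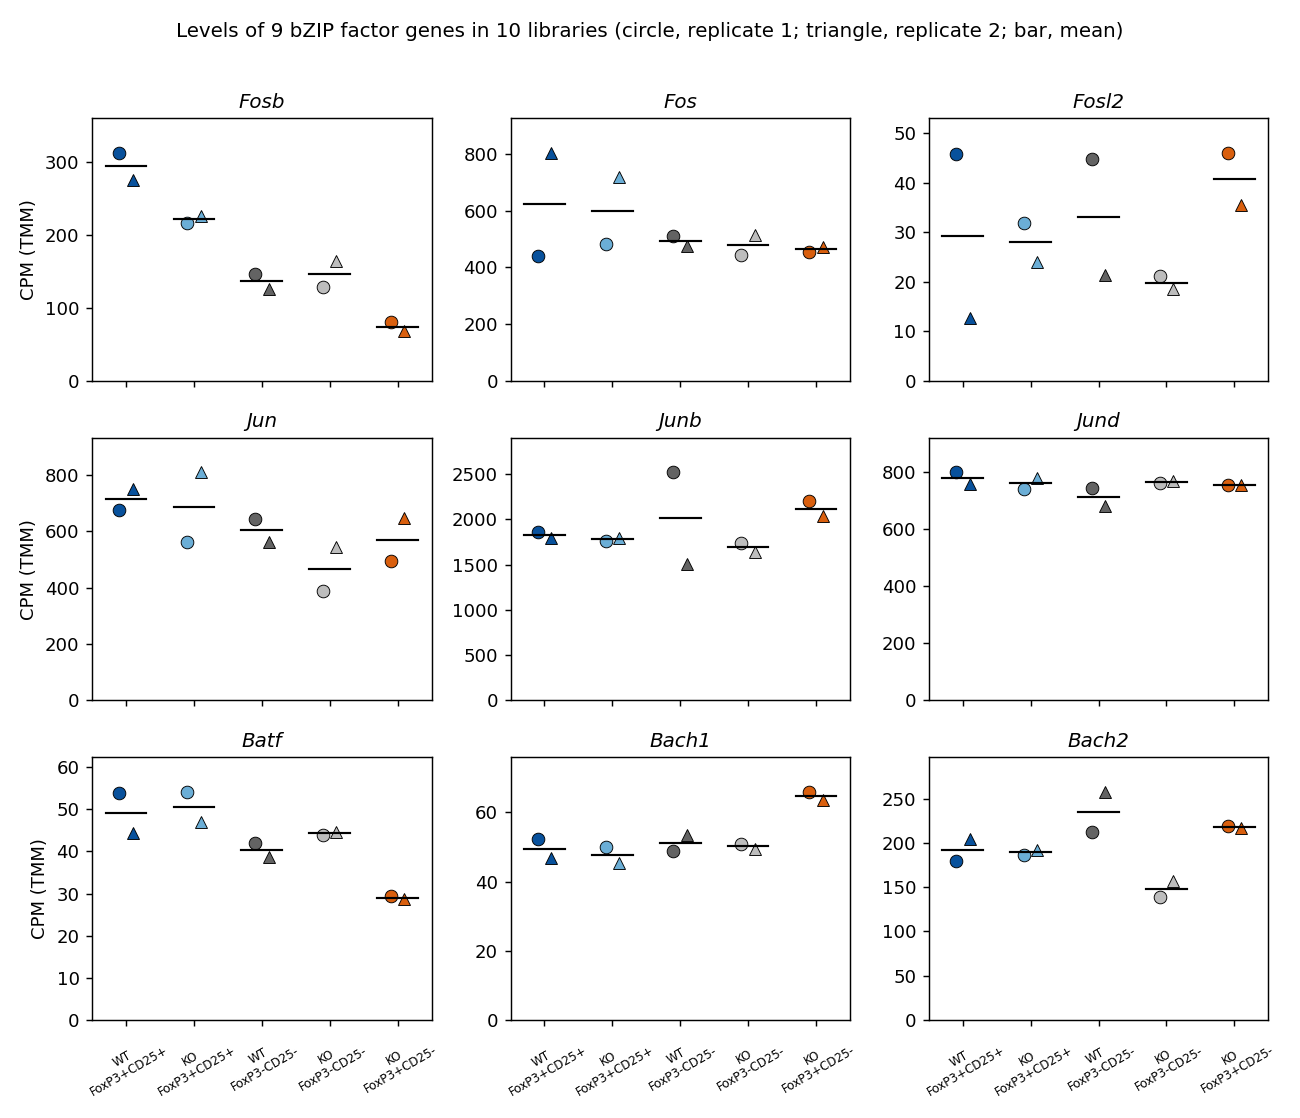
Level of the 9 detected members in each of the 10 libraries, in CPM on an axis from 0, with 1 panel per gene, 1 position per sorted group, 1 point per library and a bar at the mean of the group. Fosb ran from 313 CPM in a WT Treg library to 68.8 CPM in a KO FoxP3+CD25- library, while Jund stayed between 682 and 798 CPM.

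The genes lie on 7 chromosomes, with positions from GENCODE M21 on GRCm38. Fosb is on the minus strand of chromosome 7 (19302696 to 19310051), Fos (85473890 to 85477273) and Batf (85686669 to 85709087) are both on the plus strand of chromosome 12 with 209395 bases and 4 other genes between them, and Jun (95049034 to 95052222, minus) and Bach2 (32238804 to 32586108, plus) are on chromosome 4. Junb (84974484 to 84978718, minus) and Jund (70698949 to 70700616, plus) are on chromosome 8, Bach1 (87698945 to 87733346, plus) on chromosome 16, Fosl2 (32135801 to 32157842, plus) on chromosome 5 and Batf3 (191097847 to 191108945, plus) on chromosome 1. Some counts are uncertain because another gene lies on the opposite strand and the strand setting of the counting is not given. The antisense gene Gm11175 covers 919 bases of Jund and had 3323 to 6378 counts, Junos covers 689 bases of Jun with 248 to 624 counts, and Prdx2 covers 351 bases of Junb with 291 to 767 counts. The antisense gene Bach2os overlaps 12029 bases of Bach2 and had 82 to 293 counts. On the same strand as Bach2, Bach2it1 overlaps 14075 bases (6 to 26 counts) and Gm24371 267 bases (1 to 9 counts). Fosb, Fos, Fosl2, Batf and Bach1 overlap no other annotated gene.

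The promoters of Fosb, Batf and Fos are shown because Fosb and Batf were the members called in the comparisons, and Fos, the neighbour of Batf on the chromosome and the closest relative of Fosb, was not. Each line gives 150 bases upstream of the annotated starts of transcription, 5′ to 3′ on the strand of the gene, from RefSeq on GRCm38.p6, with TGACG (the core of the cyclic AMP response element, bound by CREB, ATF and AP-1 proteins) and, in Fos, the TATA box TATAAA in capitals. The windows are chr7:19310052-19310201 (minus) for Fosb, chr12:85686519-85686668 (plus) for Batf and chr12:85473740-85473889 (plus) for Fos.
Fosb: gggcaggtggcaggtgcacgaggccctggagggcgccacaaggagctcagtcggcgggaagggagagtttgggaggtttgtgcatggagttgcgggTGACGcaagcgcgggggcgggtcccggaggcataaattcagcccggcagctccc
Batf: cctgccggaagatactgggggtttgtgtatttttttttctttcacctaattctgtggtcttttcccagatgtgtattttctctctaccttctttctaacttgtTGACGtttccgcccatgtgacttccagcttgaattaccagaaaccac
Fos: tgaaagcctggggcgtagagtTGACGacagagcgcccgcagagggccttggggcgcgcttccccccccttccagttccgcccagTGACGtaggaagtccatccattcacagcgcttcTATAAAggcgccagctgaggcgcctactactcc

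All 10 members matched a RefSeq promoter, and motifs were searched in the 250 bases upstream of each RefSeq start. TGACG, on either strand, was found in 4 of the 10 windows (Fosb, Fos, Batf and Junb) and in 17.8% of the 32851 windows of all genes. In Fosb it lay at -60 to -56 from the RefSeq start, in Batf at -98 to -94, in Junb at -106 to -102, and in Fos at -129 to -125 and at -66 to -62. The full palindrome TGACGTCA, which contains TGACG, was in none of the 10 windows and in 1.55% of all. The AP-1 element itself, TGACTCA or its other strand TGAGTCA, was in none of them and in 4.46% of all windows. The CArG box of serum response factor was also in none of the 10 windows and in 1.47% of all. TATAAA, searched on the strand of the gene, was in that of Fos alone and in 7.59% of all. Only exact matches within the 250 bases were counted, so variants of an element and sites further upstream were not searched. A match describes the letters of a window and not a bound site. The RefSeq start of Bach2 lies 178631 bases downstream of its outermost GENCODE start and those of Fosl2 and Batf3 lie 671 and 567 bases downstream, while that of Jund lies upstream of it, so the windows of these 4 genes belong to other starts than the outermost GENCODE ones.

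Fosb varied more between the sorted groups than any other member. In a test over the 5 groups it ranked 113 of 13796 genes by p-value (FDR = 5.63e-05), and Batf (FDR = 0.0137) and Bach2 (FDR = 0.0263) were also called, while 12.3% of all genes were. The other 6 tested members were not called (FDR = 0.118 for Bach1 and 0.322 or more for Jun, Junb, Jund, Fos and Fosl2). Over the libraries the range of log2 CPM was 2.18 for Fosb, 1.85 for Fosl2, 1.06 for Jun, 0.91 for Batf, 0.89 for Bach2, 0.87 for Fos, 0.74 for Junb, 0.53 for Bach1 and 0.23 for Jund, so that Fosl2 and Jun, which were not called, ranged more widely than Batf and Bach2. In bulk libraries a lower count from fewer expressing cells and from less RNA per cell cannot be told apart, and this holds for each result here.

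Among the Fos family, Fosb, a partner of Jun proteins and an immediate-early gene, was at 313 and 276 CPM in the WT Treg libraries and at 146 and 127 CPM in the WT non-Treg libraries. It was at 217 and 227 CPM in KO Tregs, at 129 and 164 CPM in KO non-Tregs, and at 80.5 and 68.8 CPM in KO FoxP3+CD25- cells. Both Treg groups lay above, and the KO FoxP3+CD25- libraries below, each of the 4 non-Treg libraries, with no overlap. Treg and non-Treg libraries did not overlap for 47.0% of all genes in WT and 46.5% in KO mice. For KO FoxP3+CD25- libraries the share was 39.3% against KO non-Tregs and 37.5% against WT non-Tregs.

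Fosb was 2.16-fold higher in WT Tregs than in WT non-Tregs (log2 fold change 1.11, SE 0.14, FDR = 0.000474), with differences of 1.09 and 1.12 on the log2 scale within the mice. It was the 1 member of 9 called in that comparison, in which 10.9% of all genes were called and 7.15% were higher. Without both libraries of WT replicate 1 the log2 fold change was 1.13 (FDR = 0.0126). The summed level of 5 B cell markers moved with the Treg gate, at 16.4 to 20.5 CPM in the Treg libraries of both genotypes and 2.37 to 8.27 CPM in the others, most of it from Cd79b, while Ms4a1 was at or under 0.76 CPM. Its part in the result was not tested. In KO mice Fosb was again the 1 member called between Tregs and non-Tregs, 1.51-fold higher (log2 fold change 0.60, SE 0.14, FDR = 0.0286), with 0.75 and 0.47 within the mice. There 6.34% of all genes were called, 3.52% higher and 2.81% lower. The KO call did not hold without KO Treg replicate 1 or 2 or without KO non-Treg replicate 1, with log2 fold changes of 0.63, 0.56 and 0.43. Each of these fits left 1 library in a group, which lowers the precision.

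In KO FoxP3+CD25- cells Fosb was lower than in each of the 3 groups they were compared with. Against KO Tregs it was 2.97-fold lower (log2 fold change -1.57, SE 0.14, FDR = 0.000138), and this call held in each of the 11 other settings tried. Against KO non-Tregs it was 1.97-fold lower (log2 fold change -0.98, SE 0.14, FDR = 0.00697), with differences of -0.68 and -1.25 within the mice. That call was lost without KO FoxP3+CD25- replicate 2 (log2 fold change -0.86, FDR = 0.1103) or KO non-Treg replicate 2 (-0.79, FDR = 0.0719). Against WT non-Tregs, where both genotype and population differ, it was 1.83-fold lower (log2 fold change -0.87, SE 0.14, FDR = 0.0214), a call that each of the 4 libraries compared could end when left out (FDR of 0.0565 to 0.216), as did leaving out both libraries of WT replicate 1 (-0.76, FDR = 0.179). Fosb was the 1 member called against KO non-Tregs, where 1.67% of all genes were called and 1.35% were lower, and against WT non-Tregs, where 0.768% were. Against KO Tregs it was 1 of 2 members called, both lower, where 7.02% of all genes were called and 4.76% were lower.

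The difference between KO and WT in Fosb did not pass the test. In Tregs it was -0.41 on the log2 scale (95% interval -0.72 to -0.10, FDR = 0.9999), with both KO libraries below both WT libraries (27.7% of all genes had no overlap there). In non-Tregs it was 0.10 (interval -0.21 to 0.41, FDR = 0.969), with overlapping libraries. The difference in the Treg effect between genotypes was -0.51 (interval -0.95 to -0.08, FDR = 0.927). In these comparisons 1 gene (0.00725%), 20 genes (0.145%) and 0 genes (0.00%) of 13796 were called, and 593, 1106 and 685 had an unadjusted p under 0.05. With DESeq2 the difference of effects was called for 23 genes, none of them a member.

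**Figure D2:**
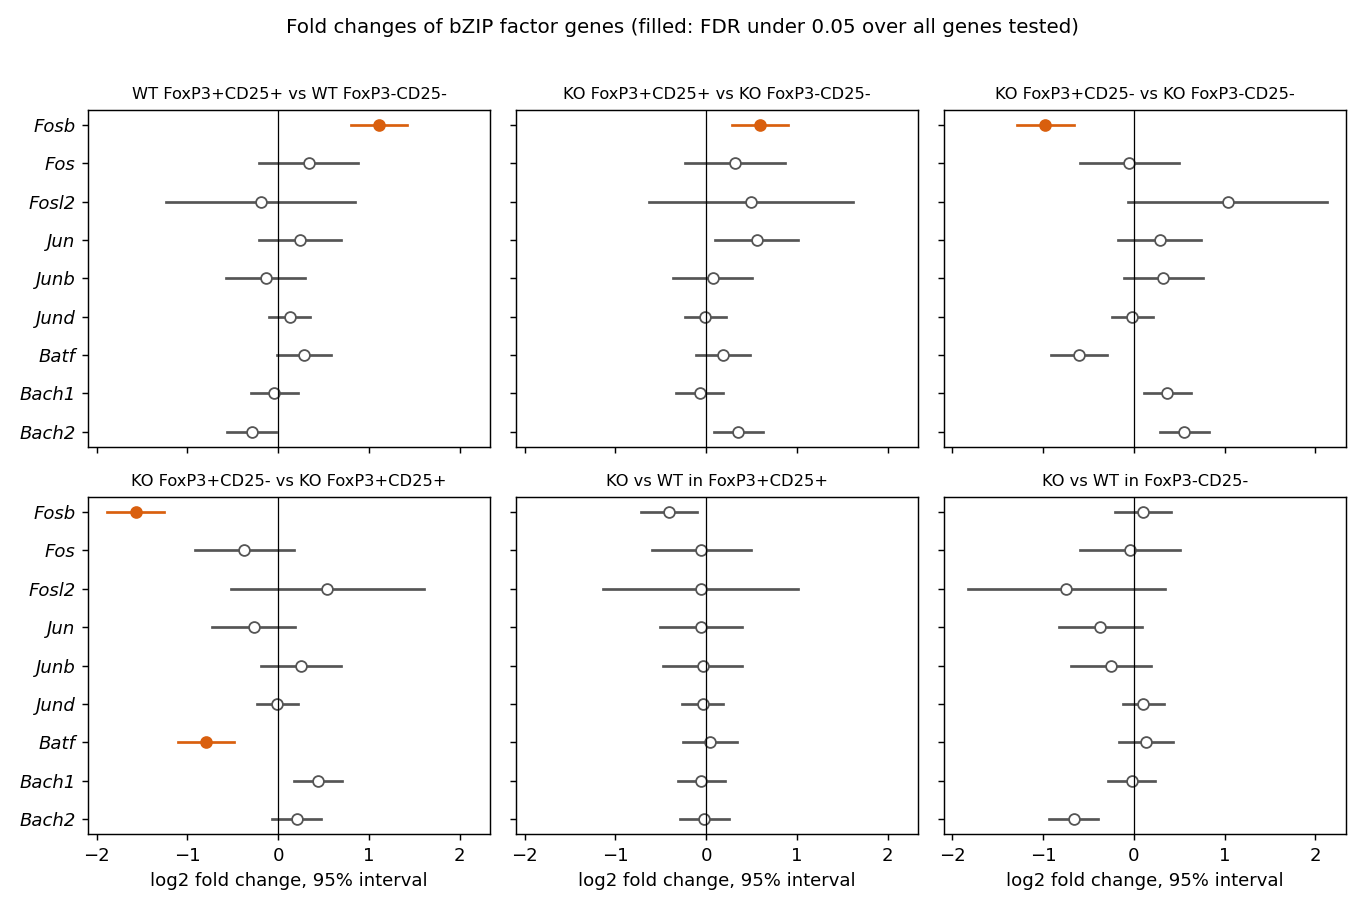
Log2 fold change of each tested member in each comparison, with its 95% interval, and filled symbols for members with FDR under 0.05. The panels show 6 of the comparisons, and the called values are those of Fosb in 4 of them, from -1.57 to 1.11, and of Batf between KO FoxP3+CD25- cells and KO Tregs (-0.80).

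The genes most like Fosb over the 10 libraries, outside the 10 members, were Sh3gl3 (Pearson r = 0.991 of log2 CPM), Entpd1 (0.987), which codes for the ectonucleotidase CD39 of Tregs, and Gm16976 (0.986). Their points share libraries and depth, and the likeness is a description. Entpd1 had group means of 41.5 CPM in WT Tregs, 25.0 in KO Tregs, 10.1 in KO non-Tregs, 6.08 in WT non-Tregs and 1.30 in KO FoxP3+CD25- cells. The order of its means was that of Fosb.

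Fos, the prototype of the family, was at 439.7 and 804 CPM in WT Tregs, 481 and 717 in KO Tregs, 512 and 475 in WT non-Tregs, 443 and 516 in KO non-Tregs, and 455 and 471 in KO FoxP3+CD25- cells. Each Treg group held 1 library at 717 CPM or more and 1 at 481 CPM or less, and the 6 libraries of the other populations lay between 443 and 516 CPM. Its log2 fold change between Tregs and non-Tregs was 0.33 in WT (interval -0.21 to 0.88, FDR = 0.503) and 0.32 in KO mice (interval -0.23 to 0.87, FDR = 0.642).

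Fosl2, which codes for FRA2, had the largest spread between replicates: 45.8 and 12.64 CPM in WT Tregs and 44.7 and 21.4 in WT non-Tregs. It was at 31.9 and 24.1 CPM in KO Tregs, 46.1 and 35.4 in KO FoxP3+CD25- cells, and 21.2 and 18.6 in KO non-Tregs. In each population the library of WT1 or KO1 was above that of WT2 or KO2. The KO FoxP3+CD25- libraries were above the KO non-Treg libraries (39.3% of all genes had no overlap there), with a log2 fold change of 1.03 (interval -0.07 to 2.13, FDR = 0.552), and differences of 1.11 and 0.92 within the mice. The difference between these groups was called in 2 of 11 other settings, with the compared groups only and with the mouse as a block. The block removes the shift between mice and gave 1.02 (FDR = 0.00569, where 5.70% of all genes were called and 1.85% were higher).

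Among the Jun family, Jun, the main partner of Fos, was at 676 and 751 CPM in WT Tregs, 646 and 561 in WT non-Tregs, 564 and 810.0 in KO Tregs, 388 and 546 in KO non-Tregs, and 494 and 646 in KO FoxP3+CD25- cells. In each of the 4 mice its Treg library was above its non-Treg library, by 0.07 and 0.42 on the log2 scale in WT and by 0.54 and 0.57 in KO mice. Neither difference was called (WT 0.24, interval -0.21 to 0.70, FDR = 0.574, and KO 0.56, interval 0.10 to 1.01, FDR = 0.187), but with the mouse as a block the KO difference was (0.55, FDR = 0.00203). There 3 members (Jun, Fosb and Bach2) and 12.0% of all genes were called (6.49% higher and 5.47% lower). KO replicate 1 was below KO replicate 2 for Jun in each of the 3 populations.

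Junb, which codes for a Jun protein that pairs with BATF, was the most abundant member, at 2521 and 1505 CPM in WT non-Tregs and 1856 and 1799 in WT Tregs. In KO mice it was at 1763 and 1796 CPM in Tregs, 1743 and 1635 in non-Tregs, and 2197 and 2036 in FoxP3+CD25- cells. The WT non-Treg pair alone spanned the values of all other groups. No comparison called it, with log2 fold changes of -0.25 to 0.33 and FDR of 0.576 or more in the 7 comparisons of groups.

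Jund was the least variable member, with 682 to 798 CPM over all libraries and log2 fold changes of -0.04 to 0.13 in the comparisons of groups. Its 95% intervals reached no further than -0.26 and 0.35 in them. Its antisense neighbour had counts of the same order, and reads of the overlapping part cannot be told apart.

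**Figure D3:**
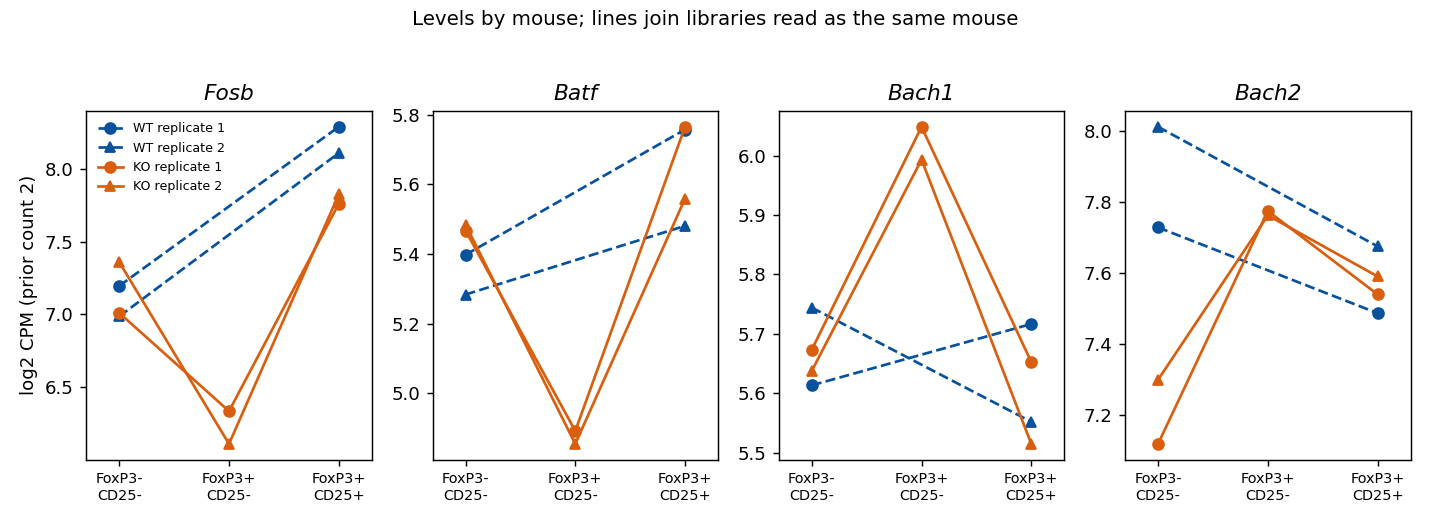
Level of Fosb, Batf, Bach1 and Bach2 in the sorted populations of each mouse, in log2 CPM (prior count 2), with 1 line per mouse, dashed for WT and solid for KO. From non-Tregs to Tregs Bach2 falls in WT1 and WT2 (-0.24 and -0.34) and rises in KO1 and KO2 (0.42 and 0.29), and Fosb and Batf are lowest in KO FoxP3+CD25- cells.

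Batf, the partner of Jun proteins at elements shared with IRF4, was at 53.9 and 44.4 CPM in WT Tregs, 54.2 and 46.9 in KO Tregs, 41.9 and 38.7 in WT non-Tregs, 44.0 and 44.5 in KO non-Tregs, and 29.4 and 28.7 in KO FoxP3+CD25- cells. Both KO FoxP3+CD25- libraries were below the 8 others. Of all genes, 4.70% had both of these libraries lowest and 3.83% highest, and Fosb and Batf were lowest and Bach1 highest among the 9 members.

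Batf was 1.74-fold lower in KO FoxP3+CD25- cells than in KO Tregs (log2 fold change -0.80, SE 0.14, FDR = 0.00528), the other member called there. The call was lost without KO Treg replicate 1 (-0.69, FDR = 0.0591) or KO FoxP3+CD25- replicate 2 (-0.78, FDR = 0.0556). Against KO non-Tregs it was at -0.61 (SE 0.14, FDR = 0.0621), which passed with the mouse as a block (-0.61, FDR = 0.00946) and with library size alone (-0.63, FDR = 0.0469). Between Tregs and non-Tregs the log2 fold change was 0.28 in WT (interval -0.01 to 0.58, FDR = 0.245) and 0.19 in KO mice (interval -0.11 to 0.49, FDR = 0.606), with Treg libraries above non-Treg libraries in both. The libraries of these groups had no overlap for 47.0% of all genes in WT and 46.5% in KO mice. Batf did not pass between genotypes (0.04 in Tregs, interval -0.26 to 0.34, FDR = 0.9999, and 0.13 in non-Tregs, interval -0.16 to 0.43, FDR = 0.928).

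The genes most like Batf were Chst11 (r = 0.984), Phactr2 (0.966) and Rilpl2 (0.965), each with the lowest group mean in KO FoxP3+CD25- cells (1.71, 10.3 and 14.0 CPM). Within the family, Batf and Fosb had r = 0.908 over the 10 libraries. Bach1 had r of -0.797 with Fosb and -0.814 with Batf, and Jun and Fos had 0.684.

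Bach1, the repressor of haem and oxidative stress genes, was at 66.0 and 63.5 CPM in KO FoxP3+CD25- cells. The 8 other libraries had 45.5 to 53.4 CPM, and their 4 groups overlapped each other. Against KO Tregs the log2 fold change was 0.44 (SE 0.12, FDR = 0.05001), just short of the threshold. It passed in 2 of 11 other settings, with the older quasi-likelihood method and with the mouse as a block (0.44, FDR = 0.0170). With that block 3 members (Fosb, Batf and Bach1) and 15.1% of all genes were called (6.15% higher). Against KO non-Tregs it was 0.37 (interval 0.11 to 0.63, FDR = 0.206) and against WT non-Tregs 0.34 (interval 0.09 to 0.60, FDR = 0.333). Of 10 genes that BACH1 is known to repress, such as Hmox1, Nqo1 and the ferritin genes, 8 were tested, and none was called in any comparison. Their median log2 fold change was 0.05 between KO FoxP3+CD25- cells and KO Tregs, and that of all genes was 0.00.

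Bach2, the repressor of effector genes, had its highest group mean in WT non-Tregs and its lowest in KO non-Tregs. KO non-Tregs also had the lowest group means of Jun, Junb and Fosl2. Bach2 was at 212 and 258 CPM in WT non-Tregs, 179 and 204 in WT Tregs, 186 and 192 in KO Tregs, 219 and 217 in KO FoxP3+CD25- cells, and 139 and 157 in KO non-Tregs. The KO non-Treg libraries were below the 8 others, and the WT non-Treg libraries were above all Treg libraries. Of 13796 genes, 376 had both KO non-Treg libraries lowest and 477 had them highest. KO and WT non-Tregs did not overlap for 38.3% of all genes, and WT Tregs and WT non-Tregs for 47.0%.

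Between KO and WT non-Tregs, Bach2 was at -0.66 on the log2 scale (SE 0.12), a 1.58-fold lower level, but its FDR over all genes was 0.0857, short of the threshold. Of all genes, 0.0290% were called lower there. It passed in 3 of 12 other settings: without the filter on low counts (FDR = 0.0167), with DESeq2 (FDR = 0.00363) and with the replicate number as a block (FDR = 0.0114), though that number pairs no mice between genotypes. Leaving out any of the 4 compared libraries gave values from -0.80 to -0.50, and without both libraries of WT replicate 1 it was -0.80 (FDR = 0.0592). Treg markers moved with this comparison, without a call: Il2ra was at 1.63 (FDR = 0.180), Ikzf2 at 1.05 (FDR = 0.0806), Foxp3 at 0.66 (FDR = 0.511) and Ctla4 at 0.49 (FDR = 0.915). The summed level of these 4 markers was 303 and 243 CPM in KO and 192 and 123 CPM in WT non-Tregs, against 2558 to 3284 CPM in Tregs. Cd79b was at 1.81 (FDR = 0.211). Their part in the values of Bach2 and of the effector genes was not tested. Between KO and WT Tregs the log2 fold change was -0.02 (interval -0.29 to 0.25, FDR = 0.9999), with overlapping libraries.

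The Treg difference of Bach2 had opposite signs in the genotypes, a pattern whose share over all genes was not computed. In WT mice it was -0.29 (SE 0.12, FDR = 0.182, and -0.33 with FDR = 0.265 without WT replicate 1), with -0.24 and -0.34 within the mice, and in KO mice 0.35 (SE 0.12, FDR = 0.148), with 0.42 and 0.29. The difference of these differences was 0.65 (SE 0.17, interval 0.26 to 1.03) with FDR = 0.589 over all genes, and 0.69 (FDR = 0.616) without WT replicate 1. With the mouse as a block it was 0.64 (FDR = 0.0258), 1 of 149 genes called (1.08% of all), and the differences in WT (-0.29, FDR = 0.0260, where 19.1% of all genes were called and 7.75% were lower) and in KO mice (0.35, FDR = 0.0147) passed too. KO FoxP3+CD25- cells had more Bach2 than KO non-Tregs (0.56, SE 0.12, FDR = 0.0534), which passed with the mouse as a block (FDR = 0.00207), with DESeq2 (FDR = 0.0117) and without the filter (FDR = 0.0251). Against WT non-Tregs these cells were at -0.11 (interval -0.38 to 0.16, FDR = 0.946).

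The genes most like Bach2 were Prkaa1 (r = 0.8999), Gm12248 (0.890) and Adat1 (0.878), lower likenesses than for Fosb and Batf. Prkaa1, a catalytic subunit of AMP-activated kinase, had group means of 83.4 to 95.7 CPM.

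Other genes of the same routes were read from lists of related genes, by counts beside the members. Of all genes, 10.9% were called between Tregs and non-Tregs in WT and 6.34% in KO mice. For KO FoxP3+CD25- cells it was 1.67% against KO non-Tregs, 7.02% against KO Tregs and 0.768% against WT non-Tregs. The counts of every list below are to be read beside these shares. Of 29 tested bZIP factors outside the 10 members, 4 were called between WT Tregs and non-Tregs: Nfil3 (2.19), Maf (1.45) and Atf6 (0.91) were higher and Nfe2l2 (-1.001), which codes for the BACH1 competitor NRF2, was lower. In KO mice Nfe2l2 alone was called (-0.81). In KO FoxP3+CD25- cells Maf was lower than in KO non-Tregs (-1.63), and against KO Tregs Maf (-1.54) and Nfil3 (-2.33) were lower and Nfe2l2 higher (0.98). The list medians of these comparisons lay between -0.07 and 0.15, and those of all genes between -0.02 and 0.01.

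Of 18 tested genes that respond at once to stimulation or handling, 3 were higher in WT Tregs: Egr2 (1.44, FDR = 0.00164), Nfkbia (0.92, FDR = 0.00274) and Dusp1 (1.31, FDR = 0.00890). Nfkbia (0.96) and Dusp1 (1.154) were higher in KO Tregs as well. All 3 were lower in KO FoxP3+CD25- cells than in KO Tregs (Dusp1 -1.42, Egr2 -0.998, Nfkbia -0.61), and none of the 18 was called between KO FoxP3+CD25- cells and either non-Treg group, where Fosb was. The summed level of the 19 listed genes was 5520 and 5769 CPM in WT Tregs, 6388 and 4897 in KO Tregs, 4909.7 and 4263 in WT non-Tregs, 4892 and 3896 in KO non-Tregs, and 5652 and 4095 in KO FoxP3+CD25- cells. It was higher in KO replicate 1 than in KO replicate 2 in each population, and its part in the results for Fosb was not tested.

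Of 21 genes of the MAP kinase route to AP-1, 1 was called higher and 2 lower in Tregs of each genotype, and in KO FoxP3+CD25- cells 2 were higher and 2 lower than in KO Tregs and 1 was lower than in each non-Treg group. Among them were 3 phosphatases, which shut the kinases off, and the upstream kinase gene Map3k1. Dusp4 was higher in Tregs of both genotypes (3.75 in WT, 2.84 in KO) and lower in KO FoxP3+CD25- cells than in KO Tregs (-3.78). Dusp6, a phosphatase of ERK, was lower in KO FoxP3+CD25- cells than in KO non-Tregs (-1.53, FDR = 0.000341), WT non-Tregs (-1.07, FDR = 0.00333) and KO Tregs (-0.93, FDR = 0.00124), and was lower in KO Tregs than in KO non-Tregs (-0.61). It was at 22.3 and 21.2 CPM in KO FoxP3+CD25- cells and at 40.9 CPM or more in the 8 other libraries. Dusp10 was lower in WT Tregs (-0.98). Map3k1 was higher in KO FoxP3+CD25- cells than in KO Tregs (0.39, FDR = 0.0353). The genes of the kinases further down, from Map2k1 to Mapk14, were called in no comparison. Of all genes, 10.9% were called between Tregs and non-Tregs in WT mice, 6.34% in KO mice, and 7.02% between KO FoxP3+CD25- cells and KO Tregs.

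Of 14 effector genes tied to BATF and BACH2, 12 were higher in WT Tregs than in WT non-Tregs (list median 2.08, all genes -0.02), among them Ccr8 (3.90), Il1rl1 (5.26), Klrg1 (5.11) and Tigit (2.95). In KO mice 7 were higher in Tregs (median 1.38), those of lowest p being Klrg1 (4.85), Ccr8 (3.51), Il1rl1 (3.66) and Irf8 (1.33). In KO FoxP3+CD25- cells 12 were lower than in KO Tregs (median -2.75), those of lowest p being Klrg1 (-5.97), Ccr8 (-3.56), Ccr4 (-2.66) and Tigit (-2.69), and Ccr4 (-2.38) and Icos (-1.23) were lower than in KO non-Tregs. Between KO and WT non-Tregs, where Bach2 was at -0.66, the list median was 0.50 (all genes -0.0027), and none of the 14 was called. Several of these genes are also Treg genes, so the list does not separate the action of the factors from the sort.

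Of 10 naive T cell genes, 5 were lower in WT Tregs (Lef1 -1.65, Tcf7 -1.20, Il7r -1.53, S1pr1 -0.89 and Ccr7) and 4 in KO Tregs (Tcf7 -1.22, Il7r -1.23, Lef1 -0.89 and S1pr1 -0.59). In KO FoxP3+CD25- cells Lef1 (1.25), Il7r (1.501), Tcf7 (0.93) and S1pr1 (0.87) were higher than in KO Tregs. Myb was the exception, lower than in KO Tregs (-1.03), KO non-Tregs (-1.30) and WT non-Tregs (-1.29). No gene of any of these lists was called between KO and WT in Tregs or non-Tregs. The study reports Lef1 among the genes differentially expressed between KO and WT Tregs, a call that the test used here did not give.

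**Figure D4:**
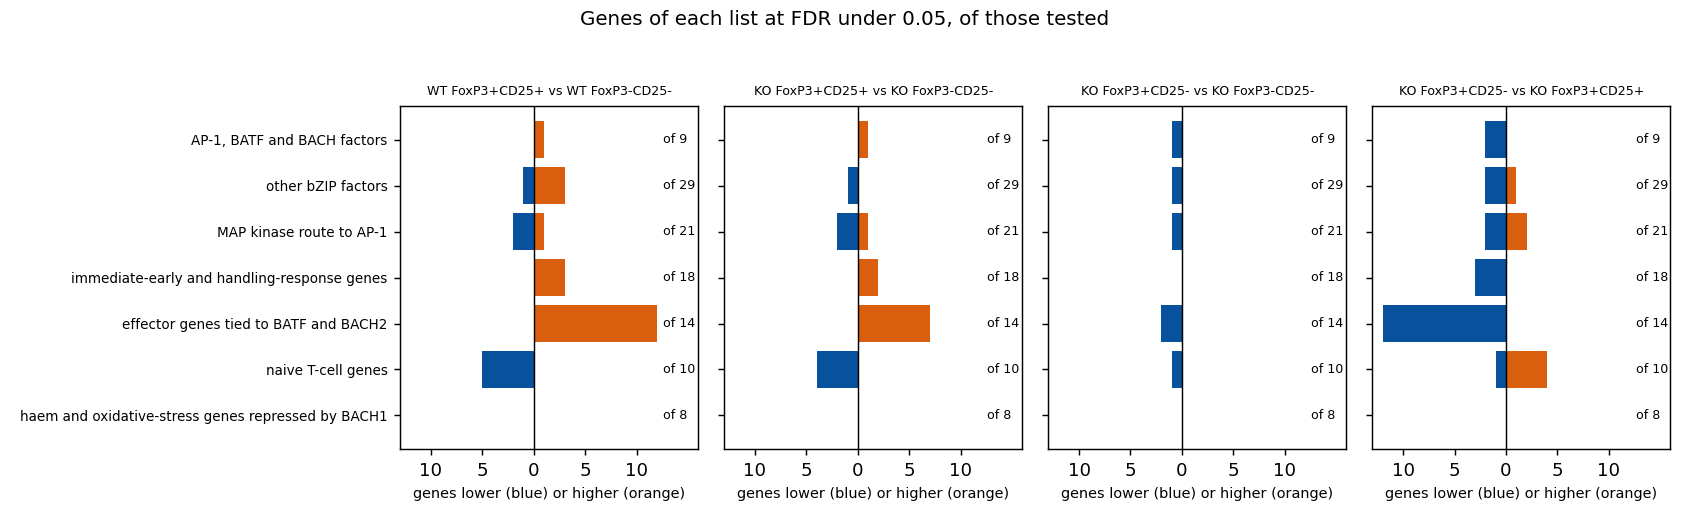
Number of genes called higher (right of 0) and lower (left of 0) at FDR under 0.05 in each list, with 1 panel for each of 4 comparisons and the number tested beside each bar. Effector genes gave 12 of 14 higher in WT Tregs and 12 of 14 lower in KO FoxP3+CD25- cells against KO Tregs, while the AP-1, BATF and BACH factors gave 1 or 2 of 9 in each panel.

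Markers of other cell types moved with the sort in 4 lists. Cd79b, of the B cell list, was higher in Tregs (3.86 in WT, 1.83 in KO) and lower in KO FoxP3+CD25- cells than in KO Tregs (-2.22). Zbtb46, of the dendritic cell list, was higher in WT Tregs (2.25), while Flt3 and Itgax were at or under 0.76 CPM. Eomes, of the NK cell list, was lower in WT Tregs than in WT non-Tregs (-2.81) and lower in KO FoxP3+CD25- cells than in KO non-Tregs (-2.66) and WT non-Tregs (-2.93), with Ncr1 at or under 0.31 CPM in every library. The summed level of the 3 NK markers was 12.4 to 25.7 CPM in non-Treg libraries and 2.41 to 7.47 CPM in the others. Itgam, of the macrophage list, was lower in KO Tregs than in KO non-Tregs (-1.75), while Cd14 and Adgre1 were at or under 0.61 CPM. Neutrophil and erythroid markers summed to at most 1.29 CPM. The part of such cells in the values of the bZIP genes was not tested.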

How the data were processed

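RNA was extracted from sorted spleen CD4+ T cells and sequenced as 50 bp reads. The authors deposited 1 file per library of raw read counts per gene symbol, from reads aligned to mm10 (GRCm38) with HISAT2 2.1.0 and counted with HTSeq 0.11.1, per the submitters' processing notes. The annotation, strand and overlap settings of the counting are not given in the sources used here, so reads of overlapping genes on opposite strands cannot be told apart. Rows naming no gene were left out of library sizes, and reads on genes were 26.0 to 28.5% of all reads in the files. There were 0 columns of other samples.

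Counts of the 10 libraries were filtered with filterByExpr (minimum count 10), scaled with TMM and tested two-sided with edgeR 4.0.16 in R 4.3.3 (glmQLFit and glmQLFTest), with 1 mean per group and no block, leaving 5 residual degrees of freedom, and Benjamini-Hochberg adjustment over 13796 genes at an FDR of 0.05. Plots and annotation joins used Python 3.11.15. Per-kilobase levels divide CPM by the merged exon bases of GENCODE M21, and promoters are those of RefSeq. On data simulated for KO against WT Tregs over 13796 genes, the test called 155 genes, of which 151 were among the 200 changed ones, with 63% of 2-fold and 88% of 4-fold changes found. The simulation gave every gene the same spread and had no shift between mice, so these shares are not the power in the real libraries. The number in the labels was read as the mouse. Deviations from group means correlated at 0.303 to 0.445 between populations of the same genotype with the same number and at -0.011 to 0.114 between genotypes, so the mouse served as a block in an alternative within genotypes. As separate animals are implied and not stated, p-values measure the spread between these libraries. With 2 libraries per group, precision rests on the pooled spread.

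The 10 genes and the lists were chosen with earlier results of these data known. Named in each comparison were all 10 members, up to 4 called genes of lowest p from each list, the 3 genes most like each of the 3 members of lowest p over the groups (Pearson r of log2 CPM, prior count 2), and Satb1 and Foxp3 as checks of the labels. Some genes of these lists are not reported here by name. Other genes named, such as Ccr7, Myb, Hmox1, Nqo1, Map2k1, Mapk14 and the markers of other cell types, only complete a list. Alternatives were no filter, RLE factors, library size alone, DESeq2 1.42.0, the older quasi-likelihood method, a replicate block, the compared groups only, and each library left out. Leaving out both libraries of WT replicate 1 was added after the data were seen.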

Additional observations from a re-analysis of the deposited data

Results flagged for a closer look

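The difference of Bach2 between Tregs and non-Tregs was -0.29 on the log2 scale in WT mice and 0.35 in KO mice, neither of them called (FDR = 0.182 and 0.148). The difference of these values was 0.65 (SE 0.17) and did not pass over all genes (FDR = 0.589 in edgeR's quasi-likelihood test). It was taken up because both mice of each genotype moved in the opposite direction to those of the other. The share of all genes with such opposite signs was not computed, so the pattern is only a description. Of 16 other settings, 1 called the difference of these values, the one with the mouse as a block (0.64, FDR = 0.0258). KO and WT differed by -0.66 in non-Tregs (FDR = 0.0857) and by -0.02 in Tregs (FDR = 0.9999).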

How the results depend on the processing

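The direction of each called value of Fosb and Batf was the same under every alternative. With 2 libraries per group the depth limits little for these genes, each with over 100 counts per library, and the spread between libraries sets the intervals. The replicate block, with the mouse as block within a genotype, called 2 members and 2634 genes in WT Tregs against non-Tregs (1 and 1504 without the block), 3 and 1650 in KO mice (1 and 874), 4 and 787 for KO FoxP3+CD25- cells against KO non-Tregs (1 and 230), 3 and 2090 against KO Tregs (2 and 968), and 1 and 149 for the difference of Treg effects (0 and 0), where Fos moved from -0.012 to 0.034. With the replicate number as block between genotypes, which pairs no mice, 217 genes were called against WT non-Tregs, 4 between genotypes in Tregs, where Fosl2 turned to 0.055, and 1 member and 108 genes in non-Tregs. The calls the block added are given beside the results, and it ended none.

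Without the filter on low counts, KO FoxP3+CD25- cells differed from KO non-Tregs in 2 members and 411 genes and from WT non-Tregs in 238 genes, the genotypes in 5 genes of Tregs and in 1 member and 91 genes of non-Tregs, and the Treg effects in 7 genes, with Fos at 0.0068. DESeq2 gave 2 members and 366 genes, 217 genes, 5 genes, 1 member and 98 genes, and 23 genes for these same comparisons. With library size alone it was 2 members against KO non-Tregs and 31 genes between genotypes in non-Tregs, and Bach2 in Tregs turned to 0.0089 and Bach1 in non-Tregs to 0.0043. With the compared groups only it was 2 members, 0 genes in Tregs and 67 in non-Tregs. Without both libraries of WT replicate 1 there were 715 genes called between WT Tregs and non-Tregs, 0 members and 42 genes against WT non-Tregs and 3 genes between genotypes in Tregs. The cause of these moves was not tested.

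With single libraries, or both of WT replicate 1, left out, the calls ranged from 715 to 2182 genes in WT Tregs against non-Tregs, 396 to 441 in KO mice, 30 to 172 for KO FoxP3+CD25- cells against KO non-Tregs, 410 to 562 against KO Tregs and 25 to 57 against WT non-Tregs, and from 1 to 7 and 0 to 14 between genotypes in Tregs and non-Tregs and 0 to 121 for the difference of Treg effects. Members called ranged from 0 to 1 in KO Tregs and against KO non-Tregs and from 1 to 2 against KO Tregs, stayed at 1 in WT Tregs, and were 0 elsewhere. Members that changed direction under these settings were uncalled throughout. Between WT Tregs and non-Tregs, the log2 fold change ran for Fos from -0.15 to 0.76, Fosl2 from -1.39 to 0.48, Junb from -0.46 to 0.27 and for Bach1 from -0.19 to 0.055. Between KO Tregs and non-Tregs, the log2 fold change ran for Jund from -0.048 to 0.027. Between KO FoxP3+CD25- cells and KO non-Tregs, the log2 fold change ran for Fos from -0.16 to 0.063. Against KO Tregs, the log2 fold change ran for Jun from -0.51 to 0.017 and for Jund from -0.048 to 0.026. Against WT non-Tregs, the log2 fold change ran for Fosl2 from -0.13 to 0.92, Jun from -0.28 to 0.11, Junb from -0.24 to 0.49 and for Bach2 from -0.24 to 0.050. Between genotypes in Tregs, the log2 fold change ran for Fos from -0.42 to 0.44, Fosl2 from -0.72 to 1.14, Jun from -0.34 to 0.18, Jund from -0.077 to 0.0026, Batf from -0.10 to 0.19, Bach1 from -0.14 to 0.034 and for Bach2 from -0.11 to 0.074. Between genotypes in non-Tregs, the log2 fold change ran for Fosb from -0.087 to 0.27, Fos from -0.16 to 0.072, Junb from -0.57 to 0.17 and for Bach1 from -0.087 to 0.054. For the difference of Treg effects, the log2 fold change ran for Fos from -0.44 to 0.48, Junb from -0.19 to 0.54, Batf from -0.24 to 0.043 and for Bach1 from -0.12 to 0.12.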
